A study of Mus musculus with 6 samples.

Results

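Cholesterol and fatty acid synthesis genes were followed in B16F10 melanoma spheroids given BMP2 or PBS. The set was a list of 31 named genes, matched by symbol to the Ensembl identifiers of the deposited table of 34981 genes. It comprised 18 sterol pathway enzyme genes, 6 fatty acid genes, 5 regulators of the SREBP system and 2 sterol transport genes. A row was found for 30 of the 31, and all 30 passed the filter on low counts that left 12929 genes for testing. Srebf2 was not analysed here.

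B16F10 is a metastatic mouse melanoma cell line of C57BL/6 origin. The BMP2 group consisted of 3 spheroid cultures given BMP2, a bone morphogenetic protein, at 100 ng/ml for 10 days, and the PBS group of 3 cultures given PBS over the same period. All cultures began from 500 cells in Matrigel, a basement membrane extract, used at 7 mg/ml. Per the design text the experiment was done 3 times, as 3 batches, each with 1 BMP2 and 1 PBS library made from total RNA with a TruSeq kit. The PBS group is titled untreated in the labels and described as PBS in the protocol.

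Cholesterol is built from acetyl-CoA through mevalonate, isoprenoid units, squalene and lanosterol, and fatty acids are built from the same acetyl-CoA after its carboxylation to malonyl-CoA. Enzymes of both branches are transcribed under SREBP transcription factors. These are held in the endoplasmic reticulum by SCAP and INSIG proteins while sterols are plentiful, and are released to the nucleus when sterols run low. LXR receptors, which sense oxysterols, drive sterol export through ABCA1 and raise transcription of Srebf1.

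The 6 libraries held 27821911 to 36856498 estimated counts. Melanocyte markers were abundant in every library, with Mitf, Tyr, Dct, Tyrp1, Pmel, Mlana and Sox10 at 189 to 12687 CPM (counts scaled by TMM-adjusted library size). Their sum was 28870 to 39070 CPM in BMP2 libraries and 23669 to 26310 CPM in PBS libraries, so it moved with treatment, and its part in the results on lipid genes was not tested. The 20 measured markers of leukocytes, endothelium, fibroblasts, keratinocytes, adipocytes and hepatocytes summed to 5.87 to 11.9 CPM in BMP2 libraries and 7.04 to 11.8 CPM in PBS libraries, and 5 of them were at 0 throughout, among them Alb and Adipoq. The PBS library of batch 1 stood apart, with a first principal component score of -79.7 against -16.8 to 55.5 for the others and the lowest TMM factor, 0.872. These are bulk libraries, so fewer cells using a gene and less RNA per cell cannot be told apart. The batches are separate runs of the experiment, and p-values measure the spread between these cultures of a single line.

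Promoter sequence is shown for 4 members: Hmgcs1 and Lss of the sterol branch, Fasn of the fatty acid branch, and the regulator Insig2. For Scd1 and Scd2 no promoter sequence was available. Each run is the 250 bases before a RefSeq start on GRCm38.p6, 5′ to 3′ on the strand of the gene. Insig2 has 3 RefSeq starts, of which the one nearest the annotated gene start is shown, and its CCAAT matches lie by that start alone. Which start the cells use was not tested. Capitals mark TCACNCCAC, a core of the sterol regulatory element bound by SREBP, and CCAAT, the core bound by NF-Y, an SREBP partner. A motif on the opposite strand appears as its reverse complement, so that CCAAT reads ATTGG.
Hmgcs1, chr13:119690101-119690350, plus strand: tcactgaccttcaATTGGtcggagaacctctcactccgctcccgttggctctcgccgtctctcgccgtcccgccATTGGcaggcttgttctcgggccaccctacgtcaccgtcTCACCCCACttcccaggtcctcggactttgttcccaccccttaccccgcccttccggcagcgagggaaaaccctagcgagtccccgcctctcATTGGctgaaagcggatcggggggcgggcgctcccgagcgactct
Lss, chr10:76531355-76531604, plus strand: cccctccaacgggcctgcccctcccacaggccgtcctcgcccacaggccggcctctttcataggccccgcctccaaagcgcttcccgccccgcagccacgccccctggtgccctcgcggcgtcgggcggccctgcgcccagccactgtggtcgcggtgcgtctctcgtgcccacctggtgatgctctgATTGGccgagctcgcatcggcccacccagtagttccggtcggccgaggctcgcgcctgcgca
Insig2, chr1:121332590-121332839, minus strand: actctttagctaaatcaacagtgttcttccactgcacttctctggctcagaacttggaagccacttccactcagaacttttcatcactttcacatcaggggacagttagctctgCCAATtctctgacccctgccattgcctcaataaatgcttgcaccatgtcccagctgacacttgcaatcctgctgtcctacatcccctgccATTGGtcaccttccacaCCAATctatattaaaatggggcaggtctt
Fasn, chr11:120824548-120824797, minus strand: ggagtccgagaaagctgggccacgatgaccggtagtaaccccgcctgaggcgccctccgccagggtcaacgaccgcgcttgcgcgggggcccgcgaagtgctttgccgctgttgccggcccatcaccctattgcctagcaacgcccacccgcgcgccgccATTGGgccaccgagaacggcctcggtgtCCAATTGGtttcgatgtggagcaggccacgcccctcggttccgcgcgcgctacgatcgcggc

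RefSeq windows of 300 bases, from 250 before to 50 after the start, were available for 25 of the 31 genes. CCAAT on either strand occurred in at least 1 window of 14 of 15 sterol enzyme genes, all but Acat2, and in 2 of 4 fatty acid genes, Acly and Fasn. Over all 27025 genes with a window, 41.1% held it. In Fasn a forward and a reverse CCAAT overlap. TCACNCCAC was found in Hmgcs1 alone among the 25, against 1.44% of all genes. A match is a run of letters and was not tested as a binding site. Only exact runs were counted, so a variant site, or one outside the window, would be missed. The lack of a match does not show that a site is absent.

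Most of the variation of the enzyme genes other than Lss lay between batches, with BMP2 and PBS libraries alike. All 18 sterol enzyme genes had their highest level in batch 3 in both groups, which held for 22.3% of the 12929 genes tested. The log2 difference of batch 3 from batch 1 had a median of 1.24 over these 18 genes in BMP2 libraries, with a range of 0.55 to 2.06. In PBS libraries the median was 1.32 and the range 0.53 to 2.65. The medians over all tested genes were -0.011 in BMP2 and -0.00052 in PBS libraries. The higher level in batch 3 was thus seen with and without BMP2.

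**Figure D1:**
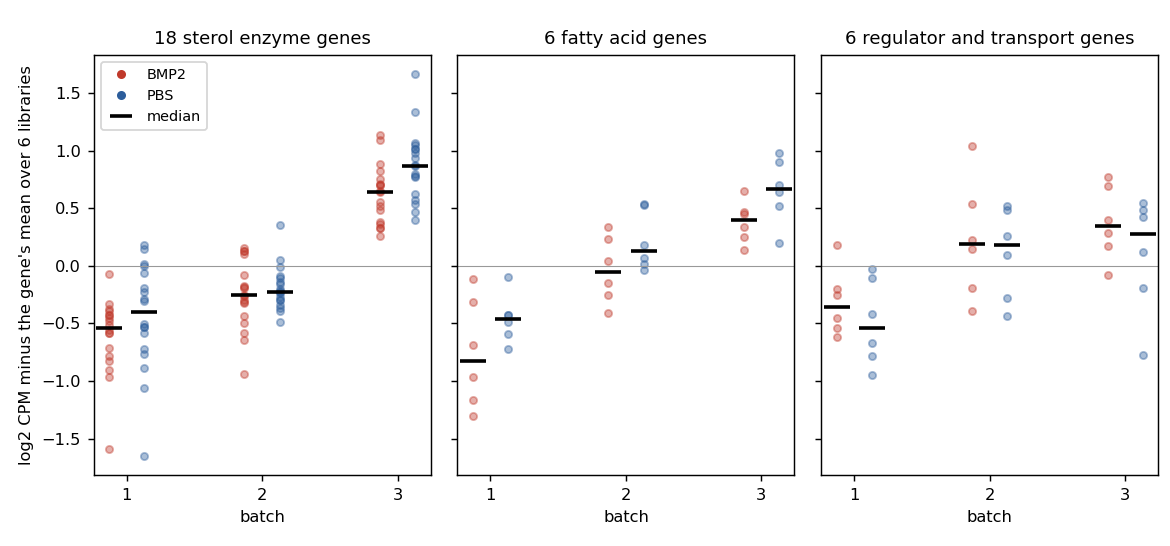
Levels by batch, as log2 CPM minus the mean of the gene over 6 libraries (y axis), for sterol enzyme, fatty acid, and regulator and transport genes. Points are genes, red for BMP2 and blue for PBS, and black bars are medians; all 18 sterol enzyme genes were highest in batch 3 in both groups.

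Cyp51, which removes the 14-alpha methyl group of lanosterol, shows the pattern. It had 77.5, 101 and 323 CPM in the BMP2 libraries of batches 1, 2 and 3, against 105, 120 and 381 CPM in the PBS libraries. Both batch 3 libraries stood far above the other 4, and the BMP2 and PBS libraries of a batch lay close together. Of the variation of log2 CPM over 6 libraries (sum of squares), 96.7% lay between batches for Cyp51 and 3.0% between treatments. The median share between batches was 94.0% over the sterol enzyme genes and 81.7% over the fatty acid genes, against 58.1% over all tested genes. Batch exceeded treatment in 17 of 18 sterol enzyme genes, Lss being the exception, and in all 6 fatty acid genes. It did so in 9965 of all 12929 tested genes as well, so this count alone does not set the members apart.

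The fatty acid genes followed batch as well, though 4 of 6 rather than all had batch 3 on top in both groups. Acaca and Scd2 were highest in batch 2 in BMP2 libraries. Among lists of other lipid genes, batch 3 was highest in both groups for 7 of 17 other sterol pathway genes. It was so for 15 of 28 other fatty acid and glycerolipid genes. The same held for 1 of 3 genes listed with LXR and 2 of 17 fatty acid oxidation genes. Total estimated counts in batches 1, 2 and 3 were 27821911, 34571447 and 36856498 in BMP2 libraries. In PBS libraries they were 35274731, 36493982 and 32311939. Their part in the batch pattern was not tested.

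With BMP2 against PBS, 0 of the 30 members passed a Benjamini-Hochberg adjusted p of 0.05 over all genes in the edgeR quasi-likelihood model of treatment alone, where 0.0387% of genes fell and 0.00773% rose, 0.0464% in all. At an unadjusted p under 0.05 it counted 2 members, Lss (lower) and Insig2 (higher), beside 5.38% of genes, and 0 passed by the DESeq2 Wald test of the same model, which called 0.526% of genes lower and 0.48% higher, 1.01% in all. Each batch held both treatments, so batch was also entered as a block. There 1 member, Lss, fell and 0 rose, where 0.364% of genes fell and 0.371% rose, 0.735% in all. At an unadjusted p under 0.05 the edgeR fit with the block counted 9 members, 7 lower and 2 higher, beside 17% of genes. The DESeq2 Wald test with the block called 6 of the 30, while calling 3.19% of all genes lower and 1.86% higher, 5.05% in all. These were Lss, Scd1, Scd2 and Hmgcs1, which fell, and Abca1 and Insig2, which rose. With all 6 libraries, the 5 other than Lss passed in this fit alone of those run.

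Lss encodes lanosterol synthase, which closes oxidosqualene into lanosterol, the first ring-bearing sterol of the pathway (ENSMUSG00000033105, GRCm38 chromosome 10, 76531588 to 76557138). It had 22.9, 35.8 and 86.3 CPM in the BMP2 libraries of batches 1, 2 and 3, against 77.8, 87.9 and 218 CPM in the PBS libraries. Each BMP2 library was far below its PBS partner, but the groups overlapped, because BMP2 of batch 3 exceeded PBS of batch 1. The means were 48.3 ± 33.5 CPM with BMP2 and 128 ± 78.3 CPM with PBS (SD, n = 3). With the block Lss fell by 1.46 on the log2 scale (SE 0.15, edgeR adjusted p 0.0241), and without it the value was -1.40 (SE 0.56, edgeR adjusted p 0.883). Treatment held 50.0% of its variation and batch 48.9%. The edgeR adjusted p with the block was 0.0611 when batch 2 was left out, at a log2 fold change of -1.55, and 0.00233 and 0.000259 without batch 1 or 3. Without the block, the log2 fold change was -2.13 when BMP2 of batch 3 was dropped and -0.77 when PBS of batch 3 was dropped.

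The steps just before it had values closer to 0. Sqle, squalene epoxidase, which makes the substrate of lanosterol synthase, had 85.7, 164 and 240 CPM in BMP2 libraries and 86.4, 139 and 253 CPM in PBS libraries. Its log2 fold change was 0.04 (SE 0.46), and the within-batch values were -0.01, 0.24 and -0.07. Fdft1, squalene synthase, was at 89.6, 113 and 175 CPM with BMP2 and 128, 112 and 233 CPM with PBS, a difference that was near 0 in batch 2. Over the sterol enzyme genes other than Lss, log2 fold changes ran from -0.51 to 0.34 in the model of treatment alone, so Lss at -1.40 lay outside their range. Fdft1 shares 17.6% of its 31-mers with its neighbour Ctsb and 14.3% with the related locus Gm6781, so its own level is uncertain.

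**Figure D2:**
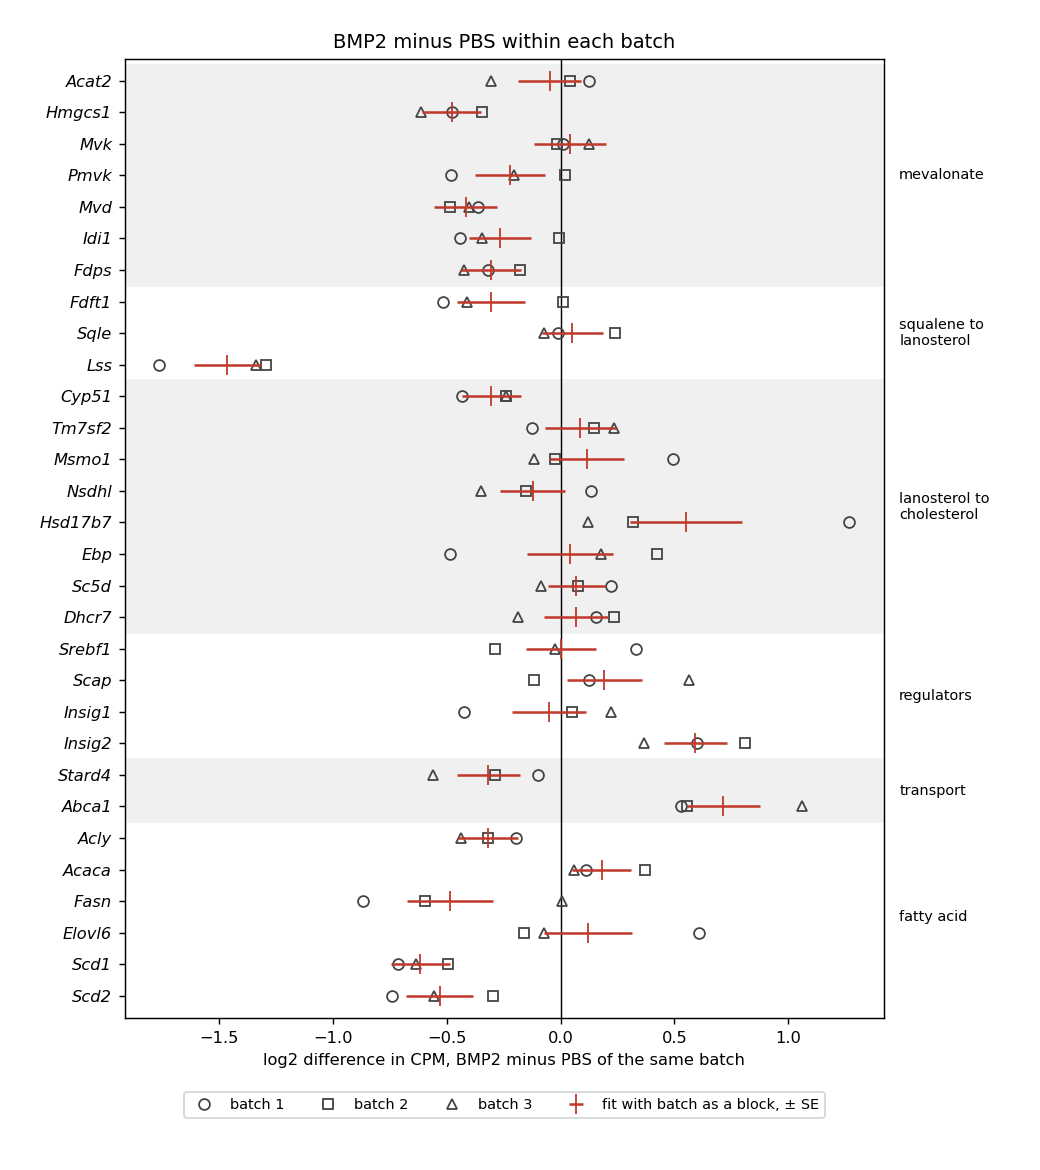
The log2 difference in CPM, BMP2 minus PBS of the same batch (x axis), for the 30 genes. Open symbols are batches and red bars the fit with batch as a block ± SE; Lss at -1.76, -1.29 and -1.34 is left of every other gene, and Abca1 and Insig2 are right of 0 in all 3 batches.

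The mevalonate steps had a median log2 fold change of -0.30 over 7 genes, and 4 of the 7 were lower with BMP2 in all 3 batches. The share of all tested genes with BMP2 below PBS in each batch was 21.1%, and with BMP2 above PBS 22.8%. Hmgcs1, the HMG-CoA synthase that feeds the pathway (chromosome 13, 119690379 to 119708260), had 104, 83.9 and 157 CPM in BMP2 libraries against 145, 107 and 241 CPM in PBS libraries. It was lower with BMP2 in each batch, with overlapping groups and a value of -0.48 with the block (log2 fold change, SE 0.13, edgeR adjusted p 0.168; DESeq2 adjusted p 0.0426). Mvd, which decarboxylates mevalonate diphosphate, had 19.8, 21.5 and 37.5 CPM with BMP2 and 25.5, 30.1 and 49.5 CPM with PBS. Its within-batch values of -0.36, -0.48 and -0.40 were close to each other (edgeR adjusted p 0.227 with the block).

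Acat2 (thiolase), Mvk (mevalonate kinase), Pmvk (phosphomevalonate kinase), Idi1 (isopentenyl diphosphate isomerase) and Fdps (farnesyl diphosphate synthase) had log2 fold changes between -0.33 and 0.06 without the block. Mvk was the closest to equal of these 5, at 10.7, 13.6 and 25.9 CPM with BMP2 and 10.7, 13.8 and 23.7 CPM with PBS, and 99.5% of its variation lay between batches. Fdps was lower in all 3 batches, at -0.32, -0.18 and -0.42. Acat2 shares 43.7% of its 31-mers with Acat3, Fdps 24.6% with the overlapping Gm43738, and Idi1 18.4% with the pseudogene Gm13502, so these 3 levels are uncertain.

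From lanosterol to cholesterol, 8 genes had a median log2 fold change of 0.034, and 0 passed in either edgeR fit. Cyp51 was lower in all 3 batches, at -0.43, -0.24 and -0.24, and Hsd17b7, a 3-ketosteroid reductase of the pathway, was higher in all 3, by 1.27, 0.32 and 0.12. Hsd17b7 had 12.6, 17.5 and 35.8 CPM with BMP2 and 5.20, 13.99 and 33.0 CPM with PBS. Its difference was largest in batch 1, where the PBS library that stood apart held 160 estimated counts, the lowest count of any member. The other 6 changed sign between batches. They were Tm7sf2 and Dhcr7 (sterol reductases), Msmo1 (C4-methyl oxidase), Nsdhl (C4 decarboxylation), Ebp (sterol isomerase) and Sc5d (sterol desaturase), with values with the block between -0.12 (Nsdhl) and 0.12 (Msmo1). The SE of these 6 was 0.13 to 0.19, and differences of that size or somewhat larger cannot be resolved. In the same edgeR fit, Hmgcs1 at -0.48 (SE 0.13) was not called.

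**Figure D3:**
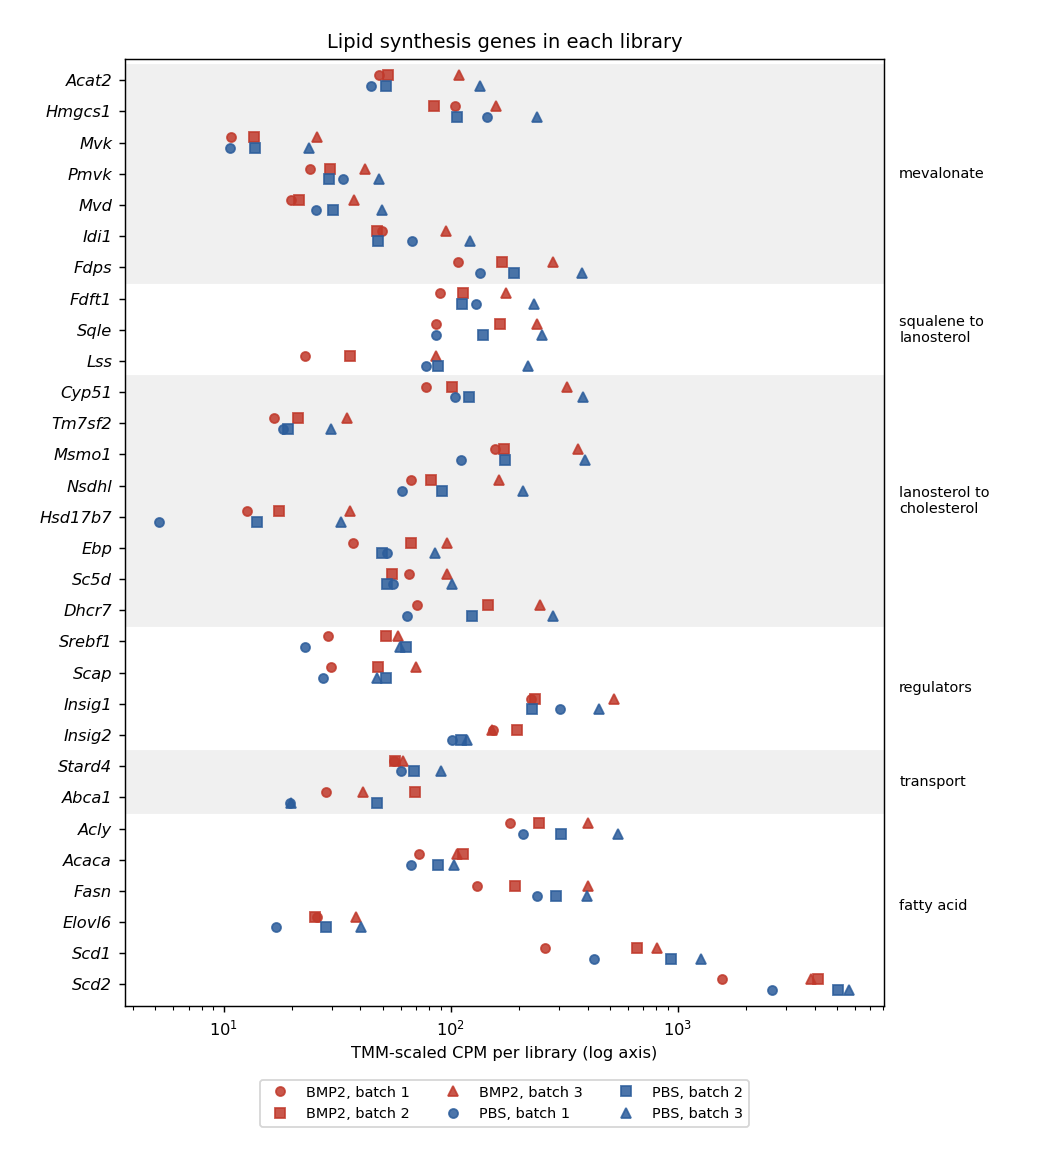
TMM-scaled CPM (x axis, log) of the 30 genes in each library, red for BMP2 and blue for PBS, with a symbol for each batch. Triangles, batch 3, lie furthest to the right among symbols of the same colour for every sterol enzyme gene. Scd2 is the most abundant member at 1559 to 5684 CPM.

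Of the 6 fatty acid genes, 3 were lower with BMP2 in all 3 batches and 1 higher. Scd1 and Scd2 encode stearoyl-CoA desaturases, which make monounsaturated fatty acids, and lie near each other on chromosome 19 (44394455 to 44407879 and 44293674 to 44306864). Scd1 had 260, 659 and 810 CPM in BMP2 libraries against 426, 930 and 1259 CPM in PBS libraries. Scd2 had 1559, 4122 and 3860 CPM with BMP2 against 2604, 5062 and 5684 CPM with PBS. Both were lower with BMP2 in each batch, by 0.50 to 0.71 (Scd1) and 0.30 to 0.74 (Scd2) on the log2 scale, while the groups overlapped.

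Fitted with the block, the log2 fold change of Scd1 was -0.62 (SE 0.13) and that of Scd2 -0.53 (SE 0.15). Their edgeR adjusted p values with the block were 0.113 and 0.174, and the DESeq2 Wald test with the block gave 0.0017 and 0.02. Under quantile scaling with the block, Scd2 was at -0.14 (limma adjusted p 0.45). With the block, Scd1 was at -0.57 without batch 1 (edgeR adjusted p 0.0302), -0.67 without batch 2 (edgeR adjusted p 0.359) and -0.61 without batch 3 (edgeR adjusted p 0.34), so its call depended on the batch left out. Scd1 shares 5.18% of its 31-mers with Scd2 and 5.84% with Scd3, so most of its sequence separates them. Per kilobase of annotated exon, Scd2 was at 582 CPM with BMP2 and 814 CPM with PBS, against 118 and 178 CPM for Scd1, so Scd2 was the higher of the pair in both groups.

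Acly, which splits citrate into cytosolic acetyl-CoA, was lower in all 3 batches, at log2 differences of -0.20, -0.32 and -0.44, at 276 ± 114 CPM with BMP2 and 353 ± 174 CPM with PBS (SD, n = 3). Fasn, the fatty acid synthase, had 131, 192 and 401 CPM in BMP2 libraries against 239, 290 and 399 CPM in PBS libraries. It was lower by 0.87 and 0.60 on the log2 scale in batches 1 and 2 and level in batch 3, at 0.01 (with the block -0.49, SE 0.19, edgeR adjusted p 0.274). Acaca, the acetyl-CoA carboxylase that commits carbon to this branch, ran the other way at 0.11, 0.37 and 0.06. It shares 31.7% of its 31-mers with Gm5182, and its value is uncertain. Elovl6, which lengthens palmitate, had mixed signs, at 0.61, -0.16 and -0.07.

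Set side by side, the sterol enzyme genes centred on -0.17 (median log2 fold change) and the fatty acid genes on -0.36, against 0.01 over all tested genes. With the block the medians were -0.085 and -0.40, and under quantile scaling -0.067 and -0.18, a difference of 0.11. Without Lss the sterol median was -0.13, and -0.048 with the block. Sterol minus fatty acid was 0.19 without the block, and 0.23, 0.31 and 0.033 within batches 1, 2 and 3. The fatty acid median was thus the lower in each batch, by an amount that was small in batch 3. The difference has no test, since members were chosen with results known. Both medians moved with single libraries: the sterol median was 0.074 when the BMP2 library of batch 1 was dropped, -0.0072 for that of batch 2, -0.56 for that of batch 3, -0.35 for PBS of batch 2 and 0.40 for PBS of batch 3. The fatty acid median was -0.093, -0.69 and -0.0094 when BMP2 of batch 1, BMP2 of batch 3 or PBS of batch 3 was dropped, and sterol minus fatty acid was 0.41 without PBS of batch 3 and 0.035 without PBS of batch 2. Without the PBS library of batch 1, which stood apart, the medians were -0.40 for sterol and -0.57 for fatty acid genes. Leaving out a single library breaks its pair, and with both libraries of a batch left out the block fit gave -0.13 to -0.020 for sterol and -0.39 to -0.34 for fatty acid genes.

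**Figure D4:**
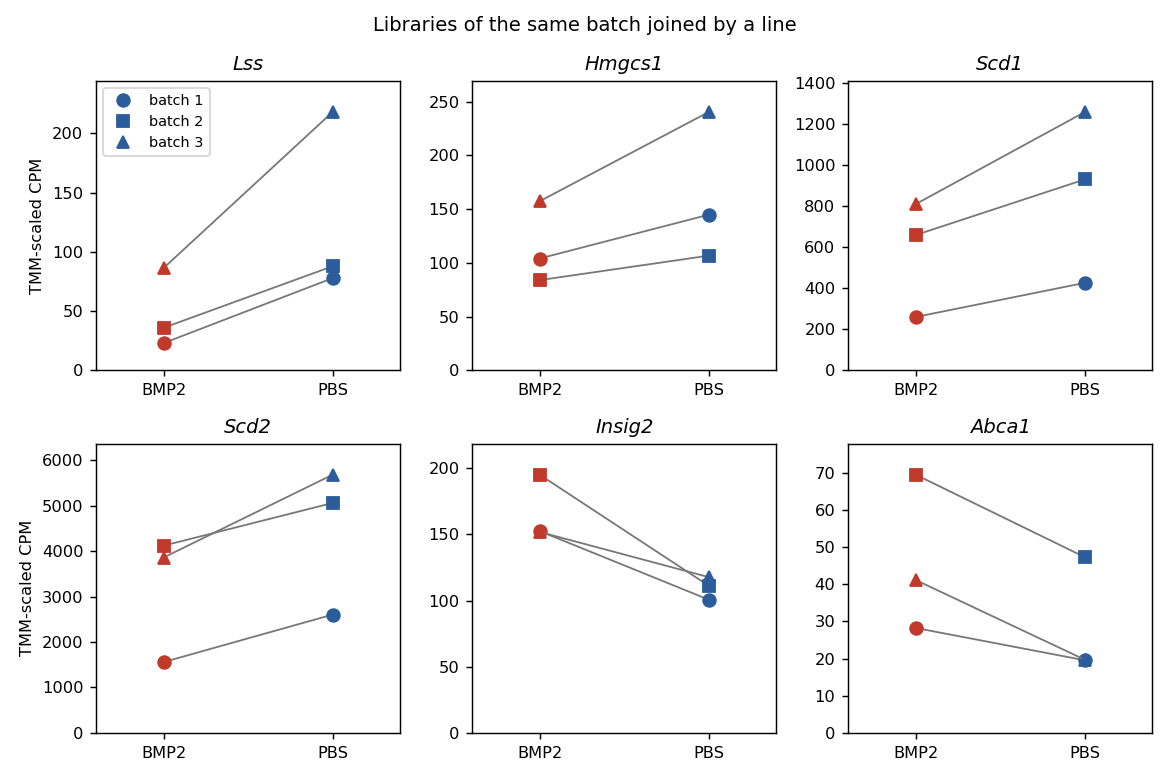
CPM (y axis) of 6 members in BMP2 (left) and PBS (right) libraries, with the 2 libraries of a batch joined. Lss, Hmgcs1, Scd1 and Scd2 were lower and Insig2 and Abca1 higher with BMP2 in all 3 batches.

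Insig2, a regulator, was the only 1 of the 30 members whose groups did not overlap, with every BMP2 library above every PBS library. Of all tested genes, 6.42% were apart in that direction and 12.1% in either, so 1 of 30 is not above the share over all genes. No member was apart in the other direction, as 5.72% of genes were. Insig2 encodes an endoplasmic reticulum protein that holds SCAP and SREBP there (chromosome 1, 121304353 to 121332589). Insig2 had 153, 195 and 152 CPM in BMP2 libraries against 101, 111 and 118 CPM in PBS libraries. All 3 BMP2 libraries were above the highest PBS library, and only 9.79% of its variation lay between batches, against 48.9% to 99.5% for the sterol enzyme genes. Its log2 fold change was 0.60 (SE 0.19, edgeR adjusted p 0.694) without the block and 0.59 (SE 0.14, edgeR adjusted p 0.137) with it, and the DESeq2 adjusted p with the block was 0.0182.

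Insig1, the paralogue that is itself an SREBP target, behaved differently. It had 225, 235 and 525 CPM with BMP2 against 302, 227 and 450 CPM with PBS, so that batch 3 was high in both groups. The within-batch values of -0.42, 0.05 and 0.22 had no common sign. Srebf1, which encodes the SREBP1 factors, was at 28.8, 51.8 and 58.4 CPM with BMP2 and 22.9, 63.4 and 59.5 CPM with PBS, and its value with the block was 0.0012 (log2 fold change, SE 0.16). Scap, the sterol-sensing escort of SREBP, had 29.7, 47.8 and 69.9 CPM with BMP2 and 27.3, 51.9 and 47.2 CPM with PBS, with a difference of mixed sign.

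Both transport genes kept their sign in every batch, in opposite directions. Abca1, the pump that exports cholesterol to apolipoproteins and a target of LXR (chromosome 4, 53030787 to 53159895), had 28.2, 69.5 and 41.1 CPM in BMP2 libraries against 19.6, 47.3 and 19.7 CPM in PBS libraries. It was higher with BMP2 by 0.53, 0.55 and 1.06 on the log2 scale, and the groups overlapped because PBS of batch 2 exceeded BMP2 of batches 1 and 3. The log2 fold change with the block was 0.72 (SE 0.16, edgeR adjusted p 0.125; DESeq2 adjusted p 0.0142). It was 0.80 without batch 1 (edgeR adjusted p 0.035), 0.80 without batch 2 (edgeR adjusted p 0.377) and 0.54 without batch 3 (edgeR adjusted p 0.336). Among the edgeR fits with the block, Abca1 was thus called only with batch 1 left out. Stard4, a cytosolic sterol carrier, had 56.1, 56.6 and 61.3 CPM with BMP2 against 60.1, 69.1 and 90.5 CPM with PBS, and its value with the block was -0.32 (SE 0.14, edgeR adjusted p 0.305).

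In all, 10 of the 30 members were lower with BMP2 in all 3 batches, 4 were higher and 16 mixed. As shares these are read against 21.1% and 22.8% over all genes. The 6 lower sterol enzyme genes were Hmgcs1, Mvd, Fdps, Lss, Cyp51 and Idi1, the last by only 0.01 in batch 2, and the 4 higher members were Hsd17b7, Insig2, Abca1 and Acaca.

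The other lists of lipid genes held 17, 28, 3 and 17 tested genes, and 0 passed in either edgeR fit. The DESeq2 Wald test with the block called Acacb (adjusted p 0.0252) and Lpin1 (adjusted p 0.0418), both lower with BMP2. Over all tested genes that test called 3.19% lower and 1.86% higher, 5.05% in all. The calls in these lists are thus not above the share over all genes. The 17 other sterol pathway genes had a median of 0.066 (log2 fold change), and the genes with the smallest unadjusted p with the block were Tmem97, a sterol-responsive membrane protein, at -0.40 (SE 0.13), Mbtps2, the protease that releases SREBP, at 0.55 (SE 0.18) and Rnf145, a sterol-responsive ubiquitin ligase, at -0.39 (SE 0.13). Mbtps2 had 23.7, 26.3 and 21.1 CPM with BMP2 and 13.1, 17.8 and 18.02 CPM with PBS, without overlap. Of the 17 genes, the groups were apart for 1 lower with BMP2, Rnf145, and 3 higher, Mbtps2, Erlin1 and Dhdds. Over all tested genes, 5.72% were apart with BMP2 lower and 6.42% with BMP2 higher. Other genes hold 31% of the 31-mers of Mbtps2 and 25.6% of those of Tmem97, which makes both levels uncertain. Their edgeR adjusted p values with the block were 0.22 to 0.236.

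Of 28 other fatty acid and glycerolipid genes the median was 0.026. Acacb, the mitochondrial acetyl-CoA carboxylase, had 11.2, 12.1 and 6.99 CPM with BMP2 against 17.7, 17.4 and 16.3 CPM with PBS, with no overlap. Its log2 fold change with the block was -0.80 (SE 0.20, edgeR adjusted p 0.152). Of the 28, the groups were apart for 1 lower, Acacb, and 1 higher, Dgat1, against 5.72% and 6.42% of all tested genes. Elovl4, an elongase of very long chains, was at 0.66 (SE 0.20) and Lpin1, a phosphatidate phosphatase, at -0.71 (SE 0.22). Only 3 of 8 genes listed with LXR had enough counts to test. Their median of 0.085 was the value of Mlxip, and whether Mlxip follows LXR was not tested. Nr1h2, which encodes LXR-beta, was at -0.36 (SE 0.12) with the block, the only 1 of the 3 whose groups did not overlap. Lpcat3 and Mlxip were at 0.21 and 0.075 with the block. Nr1h3, which encodes LXR-alpha, was below the filter at 0.0325 to 0.269 CPM.

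The 17 fatty acid oxidation genes had a median of -0.057. Eci1, an enoyl-CoA isomerase of this route, had 62.3, 62.0 and 43.7 CPM with BMP2 against 85.1, 77.7 and 64.7 CPM with PBS, without overlap. Its log2 fold change with the block was -0.45 (SE 0.12, edgeR adjusted p 0.173). Eci1 was the only 1 of the 17 whose groups were apart, lower with BMP2, as were 5.72% of all tested genes. Acaa2 and Hadh, enzymes of the last steps of the cycle, were at -0.36 and -0.30 with the block and lower in all 3 batches. These lists were counted over genes, which share libraries, and their medians carry no test.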

How the data were processed

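The authors deposited 1 table of estimated counts per Ensembl gene for 6 libraries. Per the submitters' processing notes, the tool was kallisto 0.44.0 and the build GRCm38.p6. Not given in the sources used here are the annotation release, the strand setting and the step from transcripts to genes. At most 0.0456% of the values above 0 in a library lay within 1e-06 of a whole number, so they were rounded before testing. Kallisto divides reads between near-identical sequences by likelihood, which leaves genes with copies uncertain. Symbols came from GENCODE M21 by identifier (34600 matched, 381 not), and promoters from RefSeq.

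Genes were tested with the edgeR 4.0.16 quasi-likelihood test in R 4.3.3, after filterByExpr and TMM scaling, at a Benjamini-Hochberg adjusted p of 0.05 over 12929 genes. Treatment was the only term, and batch was added as a block in a further fit. SE is the size of the log2 fold change divided by the root of F. Libraries were assigned to batches by the replicate number in their labels, and deviations of same-batch libraries correlated at 0.51, 0.25 and 0.52. Within-batch values are differences of log2 CPM with a prior count of 2. Alternatives used other filters and scalings, limma 3.58.1, DESeq2 1.42.0, summing of near-identical genes, and leaving out libraries or batches. The steps were tested on simulated data, whose batch effects were smaller than those of the sterol enzyme genes and drawn separately for each gene. That run does not show how the fits perform at the batch differences seen here. Members and lists were chosen with earlier results of these data known. All members were named, with the 3 genes of smallest unadjusted p with the block from each of 4 other lists.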

Additional observations from a re-analysis of the deposited data

How the results depend on the processing

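Depth was ample for every member (160 to 189852 estimated counts), and the limits are 3 pairs and large batch differences. Over all genes, 5 were lower and 1 higher with BMP2 without the block, against 47 and 48 with the replicate block, 16 and 19 with no filter, 68 and 62 with DESeq2, 412 and 241 with DESeq2 and the block, 61 and 55 with quantile scaling and the block, 1 and 0 with near-identical genes summed, and 36 and 47 with these summed and the block. The higher count was 0 under the stricter filter and 2 under quantile scaling. Members called lower numbered 0 without the block and 1 with it (also with quantile scaling or summing), and 4 lower and 2 higher with DESeq2 and the block. Under quantile scaling, with or without the block, the fatty acid median was -0.18, the sterol median -0.067, their difference 0.11 and Scd2 -0.14. Of members, 4 changed sign with all 6 libraries, and the cause was not tested. Dhcr7 was 0.067 with the block, 0.052 with DESeq2 and the block, 0.12 with quantile scaling and 0.066 summed with the block. Srebf1 was 0.0012 with the block and 9.9e-05 summed with it. Insig1 was -0.050 with the block, -0.0048 with DESeq2 size factors, -0.0049 with DESeq2, -0.065 with DESeq2 and the block and -0.051 summed with it. Mvk was -0.036 with quantile scaling. Leaving out a library or a batch gave 2 to 308 genes lower and 0 to 223 higher, 0 to 2 members lower and 0 to 1 higher, a sterol median of -0.56 to 0.40, a fatty acid median of -0.69 to -0.0094 and a difference of 0.035 to 0.41. With the block, leaving out batch 2 gave 18 genes lower and 9 higher, and leaving out batch 3 gave 103 and 115, a sterol median of -0.020 and a difference of 0.37. Against the fit of treatment alone, signs in these block fits turned without batch 1 for Msmo1 (-0.078), Sc5d (-0.014), Dhcr7 (0.014) and Elovl6 (-0.12), without batch 2 for Sqle (-0.039), Ebp (-0.15), Srebf1 (0.15) and Insig1 (-0.097), and without batch 3 for Acat2 (0.082), Mvk (-0.0032), Ebp (-0.031), Dhcr7 (0.19), Srebf1 (0.015) and Insig1 (-0.19). Without batch 1 and with the block, Abca1 (0.80, edgeR adjusted p 0.035) and Scd1 (-0.57, edgeR adjusted p 0.0302) passed as well, and neither passed without batch 2 or 3. In the fits of treatment alone with 1 library left out, 20 members changed sign: Acat2 (-0.60 to 0.55), Acly (-0.73 to 0.11), Cyp51 (-1.18 to 0.58), Dhcr7 (-0.53 to 0.72), Ebp (-0.26 to 0.39), Elovl6 (-0.20 to 0.40), Fdft1 (-0.65 to 0.072), Fdps (-0.77 to 0.20), Hsd17b7 (-0.21 to 1.20), Idi1 (-0.71 to 0.16), Insig1 (-0.51 to 0.32), Msmo1 (-0.47 to 0.69), Mvk (-0.40 to 0.46), Nsdhl (-0.69 to 0.46), Pmvk (-0.47 to 0.029), Sc5d (-0.22 to 0.42), Scap (-0.12 to 0.48), Sqle (-0.36 to 0.54), Srebf1 (-0.41 to 0.18) and Tm7sf2 (-0.24 to 0.38). Leaving out a library leaves its group with 2 and breaks a pair.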
